A study of Mus musculus with 9 samples.

Results

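The genes described here are 10 transcription factor genes of the B cell lineage, Ebf1, Spib, Spi1, Pou2f1, Pou2f2, Pou2af1, Ets1, Fli1, Ikzf1 and Ikzf3. They were taken by name from the gene column of the deposited expression table, where each matched a single row, and they make up 10 of its 24459 rows. The rule for choosing rows uses names and no measured values, though the list of names was drawn up with earlier results of these data known. RNA was sequenced from follicular (FO), BDL and marginal zone (MZ) B cells, with 3 libraries per subset and 9 libraries in all. All cells came from the spleens of mice 8 to 10 weeks old that had been given no treatment. The labels name the strain as C57/BL6 and the paper as B10.PL, and which one holds was not tested. FO and BDL were sorted with the same markers, B220+, intermediate IgM and CD21, CD23+ and CD93-, and differed in IgD, which was high on FO and low or absent on BDL. MZ B cells were sorted as B220+, high in IgM and CD21, CD23- and CD93-. Each library came from 1 sort of cells pooled from 5 mice, so that single mice were not resolved and p-values measure the spread between sorts. The labels carry 3 dates, with 1 FO, 1 BDL and 1 MZ library per date, and replicates are numbered here by date.

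These proteins act together at the regulatory regions of B cell genes. EBF1 commits progenitors to the B lineage and keeps mature B cells in it. PU.1 (Spi1), Spi-B (Spib), Ets1 and Fli1 are ETS proteins, which bind DNA around a GGAA core, and PU.1 and Spi-B can replace each other at many B cell sites. Oct-1 (Pou2f1) and Oct-2 (Pou2f2) bind the octamer of immunoglobulin promoters and recruit the coactivator OBF1 (Pou2af1). Ikaros (Ikzf1) and Aiolos (Ikzf3) are related zinc finger proteins that bind a GGGAA core and recruit chromatin remodelling complexes. Ets1 is known to hold B cells back from becoming plasma cells.

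Values are FPKM, which scale fragments by the length of the transcript and the mapped fragments of the library, so that levels can be compared between genes. The columns summed to between 446033 and 517208 FPKM. The relative depth, estimated from the steps between low values, ran from 0.903 to 1.22 times that of FO replicate 1. At that depth the lowest value of any of the 10 genes stood for approximately 3300 fragments, whose counting error alone is 1.74%. The labels were compared with levels of marker genes. The 6 B cell markers summed to between 3269 and 4671 FPKM in every library. Cr2, the gene of CD21, was at 400 to 505 FPKM in MZ and at most 149.8 FPKM in the other libraries, and Fcer2a, the gene of CD23, was at most 34.5 FPKM in MZ and at least 389 FPKM elsewhere. CD21 and CD23 were sort markers, set alike for FO and BDL, so these genes do not tell FO from BDL. Of 5 MZ markers, Cr2 among them, 4 were higher in MZ than in FO, where 14.3% of all rows were higher. Notch2 was not, with means of 61.4 FPKM in FO, 45.1 in BDL and 56.3 in MZ. Cd9, also an MZ marker, was 3.57-fold higher in BDL than in FO (limma adjusted p = 0.000136). The summed level of 7 T cell markers was 9.79 to 11.3 FPKM in FO, 19.1 to 23.8 FPKM in BDL and 7.66 to 13.4 FPKM in MZ libraries. Of these, the kinase gene Lck made up nearly the whole sum, with 17.7 to 21.9 FPKM in BDL, and the other 6, Cd3e among them, had means under 0.5 FPKM. The 7 myeloid markers summed to 2.66 to 9.48 FPKM in FO, 6.23 to 12.5 FPKM in BDL and 3.62 to 11.6 FPKM in MZ. Of these, Emr1, the gene of F4/80, was 3.98-fold higher in BDL than in FO (limma adjusted p = 0.000822) and 4.57-fold higher than in MZ (adjusted p = 6.91e-05), and Itgam was 1.85-fold higher in BDL (adjusted p = 0.0208) and 2.14-fold higher in MZ (adjusted p = 0.00198) than in FO. The myeloid markers Lyz2, S100a8 and S100a9 were not called in any comparison, and Csf1r and Cd14 were too low to be tested. In the paper, flow cytometry did not bear out higher F4/80 on the surface of BDL. All 4 megakaryocyte markers had means under 0.5 FPKM in every subset. Sums of 4 cycling cell markers were higher in BDL, with 21.0 to 22.5 FPKM, and in MZ, with 16.7 to 20.3 FPKM, than in FO, with 11.3 to 12.2 FPKM. All 4 were higher in BDL than in FO. In MZ, Mki67, Top2a and Ccnb1 were higher than in FO, but Mcm5 was lower (limma adjusted p = 0.0271). The 4 plasma cell markers summed to 20.8 to 21.2 FPKM in FO, 25.8 to 27.7 FPKM in BDL and 24.5 to 28.0 FPKM in MZ. The 3 NK cell markers summed to at most 4.24 FPKM in any library. The 4 erythroid markers summed to 8.33 to 9.48 FPKM in BDL, above every FO library, with 2.22 to 5.90 FPKM, and every MZ library, with 4.49 to 7.84 FPKM. Hbb-b1, a haemoglobin gene, was 3.83-fold higher in BDL than in FO (limma adjusted p = 0.00542) and 2.63-fold higher than in MZ (adjusted p = 0.00617). The part of other cells in the results below was not tested.

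All 10 genes were expressed in every library and passed the minimum mean of 0.5 FPKM set for the test. Ets1 had the highest mean over the 9 libraries, 211 FPKM, followed by Spib with 184 FPKM, Ikzf3 with 182 FPKM and Pou2af1 with 169 FPKM. The ranges of these 4 genes overlapped, so that their order was not larger than the spread between libraries. Ikzf1 followed with 112 FPKM, then Pou2f2 with 74.0, Ebf1 with 60.2, Spi1 with 53.1 and Fli1 with 39.8 FPKM. Pou2f1 was lowest, with 10.2 FPKM, and its highest library stood below the lowest library of each other member. Within the 11597 rows tested, the means lay between percentile 51.6, for Pou2f1, and 97.5, for Ets1.

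**Figure D1:**
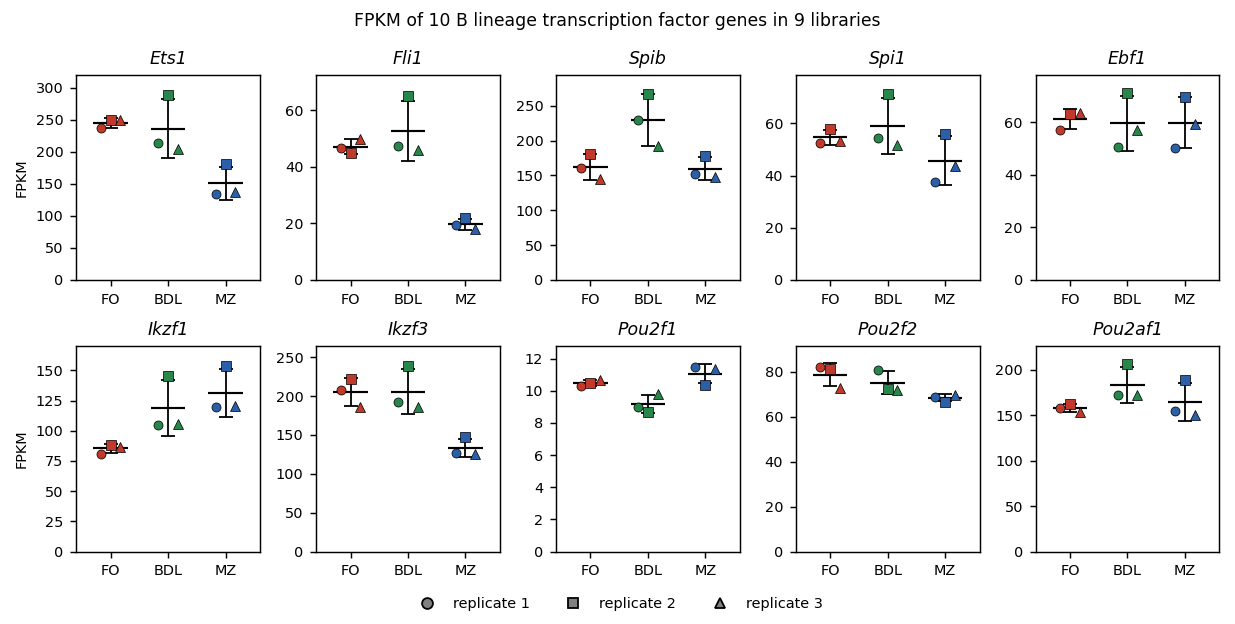
FPKM of the 10 genes (vertical axis, from 0, one panel per gene) in FO, BDL and MZ libraries. Each point is a library, the symbol gives its replicate number, the long bar the mean and the short bars 1 SD (n = 3); MZ points of Fli1 lie between 18.0 and 21.8, below all FO and BDL points, and BDL points of Spib lie above all others of that gene.

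BDL were compared with FO B cells to ask how cells sorted with the same markers apart from IgD differ. Of the 10 genes 0 had an adjusted p under 0.05 in limma when the subset was fitted alone, and 3 had an unadjusted p under 0.05. Of all rows tested 7.73% passed, 6.04% higher and 1.68% lower in BDL, and 1.91% with a 2-fold change. Levels did not overlap and were higher in BDL for 3 genes (Spib, Pou2af1 and Ikzf1), with a background of 24.4% of rows, and lower for 1 gene (Pou2f1), with a background of 10.3%. The median difference on the log2 scale was 0.048 over the 10 genes and 0.048 over all rows. With the label date as a block, 2 genes passed, Spib and Ikzf1, both higher in BDL, where 15.6% of rows were higher. BDL were compared with MZ B cells to place them against the other mature subset. Here 4 genes were higher in BDL (Fli1, Ets1, Ikzf3 and Spib), with a background of 16.5%, and 1 was lower (Pou2f1), with a background of 11.6%. Levels did not overlap for 5 genes higher in BDL and 1 lower, with backgrounds of 22.6% and 16.4%. The median difference was 0.27 over the 10 genes and 0.057 over all rows, on the log2 scale. With the block Spi1 passed as well, where 26.2% of rows were higher in BDL. MZ and FO B cells served as the reference comparison. In it 1 gene was higher in MZ (Ikzf1), with a background of 14.3%, and 3 were lower (Fli1, Ets1 and Ikzf3), with a background of 12.8%. Levels did not overlap for 1 gene higher in MZ and 4 lower, with backgrounds of 23.6% and 22.5%, and the median difference was -0.12 against -0.0087 over all rows. A change of at least 2-fold with an adjusted p under 0.05 was found for 1 gene, Fli1, both in BDL over MZ, where 3.47% of rows were that much higher, and in MZ over FO, where 3.39% were that much lower. The 3 comparisons share libraries in pairs and are not independent of each other.

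**Figure D2:**
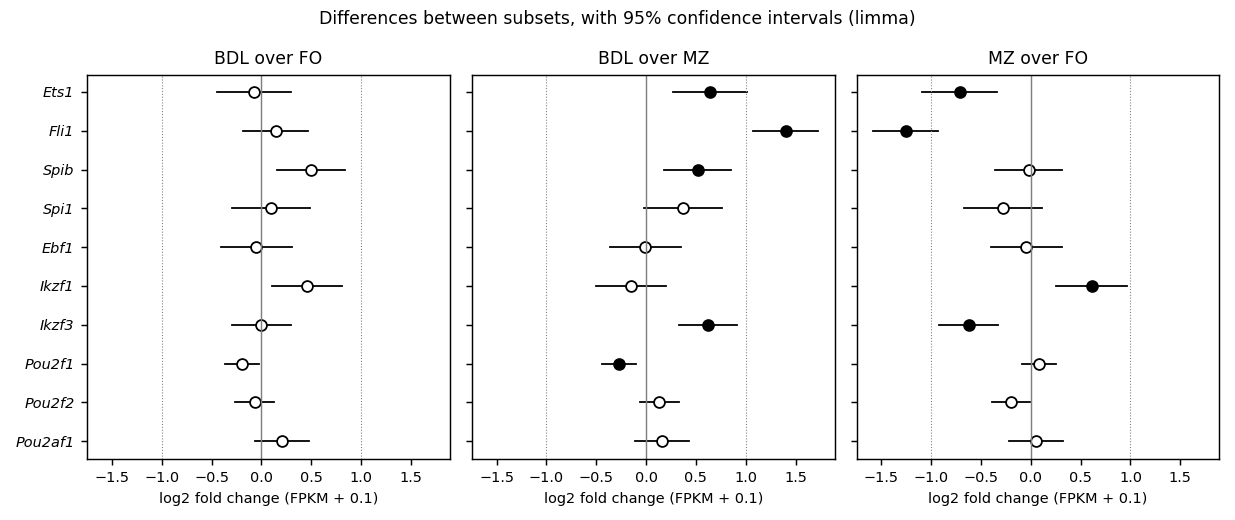
Log2 fold change on the FPKM + 0.1 scale (horizontal axis) of the 10 genes for BDL over FO, BDL over MZ and MZ over FO, with 95% confidence intervals from limma on 9 libraries. Filled points have an adjusted p under 0.05, and dotted lines mark a 2-fold change; no point is filled for BDL over FO, 5 are for BDL over MZ and 4 for MZ over FO.

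Of the ETS genes, Fli1 differed by the largest fold among the 10. It encodes an activator that binds the same core sequence as Ets1 and is also known in megakaryocytes and endothelium. FO libraries had 46.5, 44.9 and 49.9 FPKM for replicates 1 to 3, BDL had 47.4, 64.8 and 45.8 FPKM, and MZ had 19.3, 21.8 and 18.0 FPKM. All MZ libraries were low and stood apart from the other 6, whereas FO and BDL overlapped. Fli1 was 2.64-fold higher in BDL than in MZ (log2 fold change 1.40, SE 0.142, limma adjusted p = 0.000196) and 2.39-fold lower in MZ than in FO (log2 fold change -1.26, SE 0.142, adjusted p = 0.000321). The direction was that of all 3 same-date pairs, with BDL over MZ at 2.45-, 2.97- and 2.55-fold. Between BDL and FO the log2 difference was 0.14, with a 95% confidence interval from -0.18 to 0.47 (adjusted p = 0.554). In sorted bulk cells, fewer cells expressing a gene and less RNA per cell cannot be told apart.

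Ets1 had 236, 250.1 and 249 FPKM in FO, 214, 289 and 205 FPKM in BDL, and 135, 181 and 137 FPKM in MZ libraries. MZ libraries were again the lowest 3, and the FO values lay inside the range of the BDL values. Ets1 was 1.56-fold higher in BDL than in MZ (log2 fold change 0.64, SE 0.163, limma adjusted p = 0.0205) and 1.64-fold lower in MZ than in FO (log2 fold change -0.71, SE 0.163, adjusted p = 0.0128). The first of these calls was lost without MZ replicate 1 (adjusted p = 0.0780) or MZ replicate 3 (0.0729), and the second without MZ replicate 1 (0.0519). BDL and FO differed by -0.074 on the log2 scale (interval -0.45 to 0.30, adjusted p = 0.810). Fli1 and Ets1 are neighbours on chromosome 9. Positions here are on NCBIM37, another name of mm9. Fli1 lies on the minus strand from 32229793 to 32348974 and Ets1 on the plus strand from 32443806 to 32565405, so that they are transcribed away from each other across 94.8 kb with 0 annotated genes between them. Although both were lower in MZ, their ratio was not constant. Ets1 over Fli1 was 5.08, 5.57 and 5.0 in FO, 4.51, 4.45 and 4.48 in BDL, and 6.96, 8.28 and 7.64 in MZ, without overlap between any subsets.

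Spi-B is an ETS protein of B cells and plasmacytoid dendritic cells. Spib had 161, 181 and 144 FPKM in FO, 229, 267 and 193 FPKM in BDL, and 153, 178 and 148 FPKM in MZ libraries. Every BDL library exceeded every FO and MZ library, and FO and MZ overlapped. The level in BDL was 1.43-fold that in MZ (log2 fold change 0.52, SE 0.147, limma adjusted p = 0.0318) and 1.41-fold that in FO (log2 fold change 0.50, SE 0.147), for which the adjusted p was 0.0814 and 0.00891 with the label date as a block. In the 3 same-date pairs BDL over FO was 1.42-, 1.48- and 1.34-fold. The call against MZ depended on single libraries, with an adjusted p of 0.0548 without FO replicate 1, 0.0805 and 0.0724 without BDL replicates 1 and 2, and 0.101 and 0.104 without MZ replicates 1 and 3. MZ and FO differed by -0.021 on the log2 scale (interval -0.36 to 0.32). Spib lies on chromosome 7 of NCBIM37, from 51781365 to 51787441 on the minus strand. Its promoter is shown because Spib was the one gene whose level in every BDL library exceeded all libraries of both other subsets. RefSeq gives it for GRCm38.p6 at chr7:44532022-44532321, minus strand, from 250 bases before to 50 bases after the start, and the capitals mark a match to the palindrome CCCNNGGG, the core of the EBF1 site.
Spib promoter: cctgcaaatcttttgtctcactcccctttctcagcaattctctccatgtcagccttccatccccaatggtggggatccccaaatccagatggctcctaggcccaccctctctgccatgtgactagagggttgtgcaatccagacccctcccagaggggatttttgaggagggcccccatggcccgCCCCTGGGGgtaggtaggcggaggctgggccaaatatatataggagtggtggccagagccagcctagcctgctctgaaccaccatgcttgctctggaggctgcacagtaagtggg
The capitals hold 2 overlapping matches, which begin 65 and 64 bases upstream of the start. Matches on either strand occur in 13.7% of 32851 promoters of this length.

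PU.1, the product of Spi1, is required for both myeloid and lymphoid development. Spi1 had 52.5, 57.9 and 53.4 FPKM in FO, 54.3, 71.2 and 51.6 FPKM in BDL, and 37.5, 56.1 and 43.5 FPKM in MZ libraries. Replicates 1 and 3 of MZ were the lowest of the 9, and MZ replicate 2 lay inside the FO range, so that the subsets overlapped. BDL over MZ was 1.30-fold (log2 fold change 0.37, interval -0.017 to 0.76) with a limma adjusted p of 0.141, or 0.0260 with the label date as a block and 0.0363 without MZ replicate 2. BDL and FO differed by 0.097 on the log2 scale (interval -0.29 to 0.49), and MZ and FO by -0.28 (interval -0.67 to 0.11), with adjusted p = 0.748 and 0.283. Summed myeloid markers, given above, overlapped between all subsets. Among them Emr1 was higher in BDL than in FO and MZ, and Itgam higher in BDL and MZ than in FO. No other myeloid marker was called in any comparison. Spib exceeded Spi1 in every library. The ratio of Spib over Spi1 was 3.06, 3.12 and 2.70 in FO, 4.22, 3.75 and 3.74 in BDL, and 4.07, 3.18 and 3.39 in MZ. FO libraries had the lowest 3 ratios, and BDL and MZ overlapped.

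Ebf1 varied least between subsets in its mean. FO libraries had 56.9, 63.1 and 63.6 FPKM, BDL 50.7, 71.2 and 56.9 FPKM, and MZ 50.3, 69.7 and 59.5 FPKM. The subset means, 61.2 ± 3.75, 59.6 ± 10.5 and 59.8 ± 9.73 FPKM (SD, n = 3), lay closer together than the libraries of any subset. The log2 difference was -0.050 for BDL over FO (interval -0.41 to 0.31), -0.0071 for BDL over MZ (interval -0.37 to 0.35) and -0.043 for MZ over FO (interval -0.40 to 0.31), so that a 2-fold change lay outside all 3 intervals. The adjusted p in limma was 0.871, 0.983 and 0.878. Ebf1 lies on chromosome 11 of NCBIM37, from 44430819 to 44821593 on the plus strand.

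The Ikaros genes moved in opposite directions between FO and MZ B cells. Ikzf1 had 81.0, 88.4 and 87.0 FPKM in FO, 105, 145 and 106 FPKM in BDL, and 119, 154 and 121 FPKM in MZ libraries. Every BDL and MZ library exceeded every FO library, and BDL and MZ overlapped. The level in MZ was 1.53-fold that in FO (log2 fold change 0.61, SE 0.154, limma adjusted p = 0.0202), and this call was lost without FO replicate 1 (adjusted p = 0.0736), FO replicate 2 (0.0562), FO replicate 3 (0.0516) or MZ replicate 2 (0.0529). BDL over FO was 1.37-fold (log2 fold change 0.46, SE 0.154) with an adjusted p of 0.113, or 0.0242 with the label date as a block. Same-date pairs of BDL over FO were at 1.29-, 1.64- and 1.22-fold. BDL over MZ was -0.15 on the log2 scale (interval -0.51 to 0.20, adjusted p = 0.501). The Ikzf1 gene spans 11585006 to 11672929 of chromosome 11 (NCBIM37, plus strand). Its first annotated promoter (RefSeq, GRCm38.p6, chr11:11685675-11685974, plus strand) is shown because Ikzf1, next to Spib, differed between BDL and FO with the block, and its capitals mark 1 match to the same palindrome, 56 bases upstream of the start.
Ikzf1 promoter: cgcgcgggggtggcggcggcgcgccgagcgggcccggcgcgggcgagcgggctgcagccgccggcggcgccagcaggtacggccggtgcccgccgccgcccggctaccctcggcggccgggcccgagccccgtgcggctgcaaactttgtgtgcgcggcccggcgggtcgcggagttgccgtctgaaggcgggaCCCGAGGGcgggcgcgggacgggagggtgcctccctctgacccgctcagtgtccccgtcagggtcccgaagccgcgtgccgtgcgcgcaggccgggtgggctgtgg
The second annotated promoter of Ikzf1 held 0 matches to any of the 4 motifs searched. A match is a description of the letters and was not tested for binding.

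Aiolos is enriched in mature lymphocytes. Ikzf3 had 208, 222 and 186 FPKM in FO, 193, 239 and 186 FPKM in BDL, and 127, 147 and 126 FPKM in MZ libraries. The 3 MZ libraries were lowest, and FO and BDL overlapped throughout. Ikzf3 was 1.54-fold higher in BDL than in MZ (log2 fold change 0.62, SE 0.128, limma adjusted p = 0.00821) and 1.54-fold lower in MZ than in FO (log2 fold change -0.62, SE 0.128, adjusted p = 0.00787). BDL and FO differed by -0.0011 on the log2 scale (interval -0.30 to 0.29). The gene lies on the minus strand of chromosome 11 from 98326216 to 98407345 (NCBIM37). Ikzf3 over Ikzf1 was 2.57, 2.51 and 2.14 in FO, 1.84, 1.64 and 1.76 in BDL, and 1.07, 0.955 and 1.04 in MZ libraries. FO had the highest ratios, BDL stood between, and MZ was near equal levels of both genes, with no overlap between any subsets.

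Ratios within a library do not depend on the scaling between libraries, and 4 related pairs were compared over 3 comparisons each. On the log2 scale Ikzf3 over Ikzf1 differed by -0.46 for BDL over FO, 0.77 for BDL over MZ and -1.23 for MZ over FO. Ets1 over Fli1 differed by -0.22, -0.76 and 0.54, and Spib over Spi1 by 0.40, 0.14 and 0.26, in the same order. Pou2f2 over Pou2f1 differed by 0.13, 0.40 and -0.28. The two-sided exact permutation test gave p = 0.1 for 10 of the 12 comparisons, the smallest p that 3 libraries against 3 can reach, so that none could pass 0.05; its adjusted value was 0.12. The exact p was 0.3 for Spib over Spi1 between BDL and MZ and 0.4 for Pou2f2 over Pou2f1 between BDL and FO, the pairs of subsets whose ratios overlapped. The 12 comparisons share libraries, and how often ratios of other gene pairs separate was not computed. Of single rows, 24.4% were higher and 10.3% lower without overlap in BDL over FO. These shares were 22.6% and 16.4% in BDL over MZ, and 23.6% and 22.5% in MZ over FO.

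**Figure D3:**
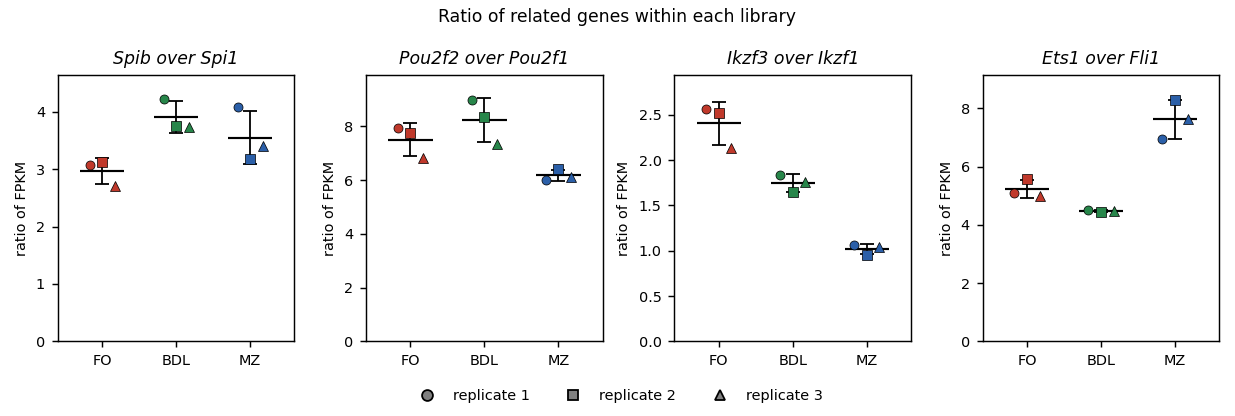
Ratio of the FPKM of 2 related genes within each library (vertical axis, from 0) in FO, BDL and MZ B cells. Points are libraries, symbols give the replicate number, the long bar is the mean and the short bars 1 SD (n = 3); Ikzf3 over Ikzf1 had means of 2.41 in FO, 1.75 in BDL and 1.02 in MZ.

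The octamer proteins differed little. Pou2f1, which is expressed in most tissues, had 10.3, 10.5 and 10.7 FPKM in FO, 9.0, 8.69 and 9.77 FPKM in BDL, and 11.5, 10.4 and 11.4 FPKM in MZ libraries. All BDL libraries were below all FO and MZ libraries. Pou2f1 was 1.21-fold lower in BDL than in MZ (log2 fold change -0.27, SE 0.0739, limma adjusted p = 0.0267), and BDL over FO was -0.19 on the log2 scale (SE 0.0739, adjusted p = 0.152). The call against MZ was lost without FO replicate 2 (adjusted p = 0.0528), BDL replicate 1 (0.0795) or 2 (0.0533), or MZ replicate 1 (0.0973) or 3 (0.0883). Exons of Pou2f1 overlap those of Cd247 on the opposite strand of chromosome 1 (NCBIM37), and Cd247 was at 0.109 to 0.363 FPKM. Pou2f1 itself lies on the minus strand from 167795285 to 167932809. MZ and FO differed by 0.078 on the log2 scale (interval -0.092 to 0.25).

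Oct-2, the lymphoid octamer protein encoded by Pou2f2, had 81.8, 81.2 and 72.8 FPKM in FO, 80.8, 72.4 and 71.9 FPKM in BDL, and 68.7, 66.6 and 69.8 FPKM in MZ libraries. MZ libraries were the lowest 3, by a small margin, and no call was made. The log2 difference was -0.20 for MZ over FO (interval -0.39 to -0.0055, limma adjusted p = 0.122), 0.13 for BDL over MZ (adjusted p = 0.283; -0.024 after quantile normalization) and -0.067 for BDL over FO (adjusted p = 0.650). Pou2f2 exceeded Pou2f1 by a mean ratio of 7.51 ± 0.615 in FO, 8.22 ± 0.818 in BDL and 6.18 ± 0.215 in MZ (SD, n = 3). The gene spans 25877472 to 25917507 on the minus strand of chromosome 7 (NCBIM37). Its promoter (RefSeq, GRCm38.p6, chr7:25132411-25132710, minus strand) is shown as the one promoter of these genes with a match to CGGAAGT, the ETS core with its preferred flanks. The match, in capitals, is on the opposite strand and begins 71 bases upstream of the start.
Pou2f2 promoter: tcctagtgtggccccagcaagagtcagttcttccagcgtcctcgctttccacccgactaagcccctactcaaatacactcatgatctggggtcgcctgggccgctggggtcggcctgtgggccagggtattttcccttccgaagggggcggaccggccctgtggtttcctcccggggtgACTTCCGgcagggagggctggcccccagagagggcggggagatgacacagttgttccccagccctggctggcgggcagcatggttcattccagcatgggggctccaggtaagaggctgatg
CGGAAGT occurs on either strand in 6.42% of promoters of this length. RefSeq promoters were matched for 6 of the 10 genes, in 10 sequences. The octamer ATGCAAAT, found in 1.74% of all promoters, had 0 matches in these 10 sequences. TGGGAA, an Ikaros core found in 25.6% of promoters, had 1 match in a promoter of Pou2f1 and 1 in a promoter of Ebf1.

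OBF1, the coactivator of both octamer proteins, is needed for germinal centres. Pou2af1 had 158, 163 and 154 FPKM in FO, 173, 206 and 172 FPKM in BDL, and 155, 189 and 151 FPKM in MZ libraries. BDL exceeded FO in every library, and MZ overlapped both. BDL over FO was 1.16-fold (log2 fold change 0.21, interval -0.061 to 0.48), with a limma adjusted p of 0.317, or 0.102 with the label date as a block. BDL over MZ was 0.16 on the log2 scale (interval -0.11 to 0.43, adjusted p = 0.356) and MZ over FO was 0.051 (interval -0.22 to 0.32, adjusted p = 0.801). Pou2af1 lies on the plus strand of chromosome 9, from 51021795 to 51048184, and Spi1 on the plus strand of chromosome 2, from 90922547 to 90955913 (NCBIM37).

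Replicate 2 held the highest value of its subset for 6 of the 10 genes in FO, 8 in BDL and 8 in MZ, and the genes at their highest elsewhere in BDL and MZ were Pou2f1 and Pou2f2. The share of all rows highest in replicate 2 was not computed. Over all rows tested, log2 values of BDL replicate 2 correlated at 0.895 and 0.883 with the other BDL libraries, against 0.917 between those. MZ replicate 2 correlated at 0.900 and 0.917 with the other MZ libraries, against 0.911 between those. The relative depth was 1.22 in BDL replicate 2 and 0.903 in MZ replicate 2. The median deviation of the 10 genes from their subset mean was 0.25 in BDL replicate 2 and 0.18 in MZ replicate 2 on the log2 scale, where the median of all rows deviated by 0.010 and 0.080. In FO replicate 2 it was 0.047, against 0.028 for all rows. The B cell markers went in both directions in these libraries. Ms4a1, the gene of CD20, was high, with 764 FPKM in BDL replicate 2 against 497 and 474 FPKM. In MZ replicate 2 it had 852 FPKM against 623 and 538 FPKM. Cd79a, Cd79b and Ptprc were also at their highest in replicate 2 of BDL and of MZ. Cd22 was at its lowest there, with 266 FPKM in BDL replicate 2 against 370 and 355 FPKM. In MZ replicate 2 Cd22 had 280 FPKM against 315 and 309 FPKM. Without replicate 2 of every subset, a choice made after these values were seen, Ikzf1 passed in BDL over FO (log2 fold change 0.33, limma adjusted p = 0.0470), and Spib had an adjusted p of 0.0737. Spi1 then passed as well, with 0.39 in BDL over MZ (adjusted p = 0.0279) and -0.39 in MZ over FO (adjusted p = 0.0285).

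**Figure D4:**
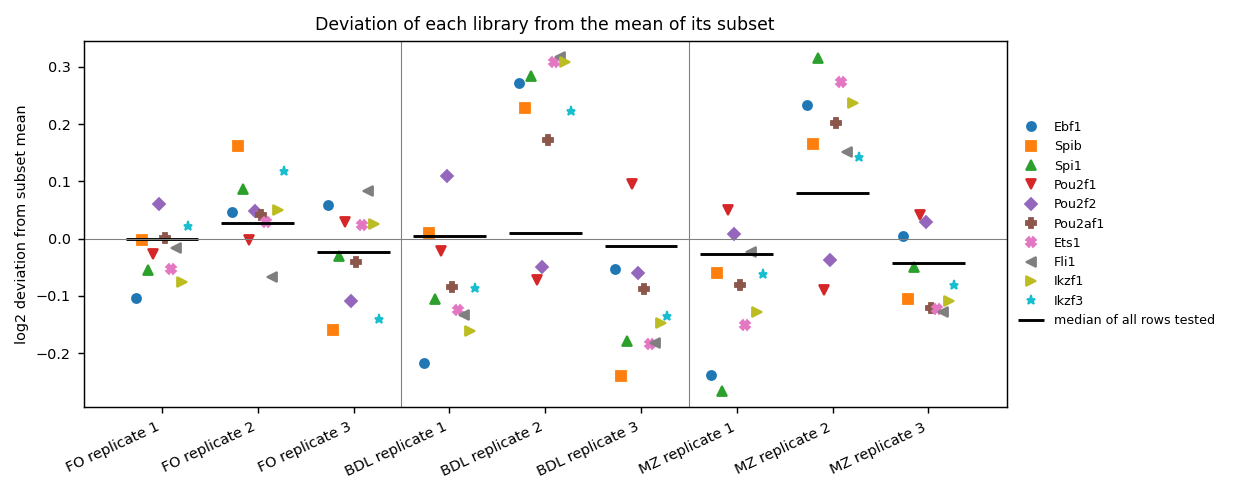
Log2 deviation of each library from the mean of its subset (vertical axis) for the 10 genes (coloured symbols) and the median of all rows tested (black bars), by library. In replicate 2 of BDL and of MZ, 8 of the 10 genes lie above the rest of their subset, and Pou2f1 and Pou2f2 do not.

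Across the 9 libraries, which fall into 3 subsets and share label dates, Ets1 was most like Ikzf3 (Pearson r = 0.96 on the log2 scale) and Fli1 (r = 0.94), and Spib ran against Pou2f1 (r = -0.94). Ikzf1 and Ikzf3 had r = -0.37 over all libraries and r = 0.84 within subsets. These are descriptions over few points. Of all other rows, Blvrb (r = 0.997) and Rfc1 (r = 0.995) were most like Fli1, Gimap7 (r = 0.994) and Anxa6 (r = 0.993) most like Ets1, and Lbh and Pi4kb (both r = 0.992) most like Ikzf3. Eif2ak1 (r = 0.996) and Rps26 (r = 0.987) were most like Ikzf1, and Ak6 (r = 0.989) and Msl3 (r = 0.980) most like Spib. The levels behind these values run from 5.05 FPKM, for Ak6, to 1229 FPKM, for Rps26, whose family has near-identical copies.

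Other members of the same families were described from lists. Of 22 other ETS genes 13 passed the minimum mean of 0.5 FPKM. In BDL over FO 1 of them was higher, Etv5, an activator of the PEA3 group, where 6.04% of all rows were higher. Etv5 had 4.69, 5.25 and 4.93 FPKM in BDL, 1.45, 1.57 and 1.75 in FO and 0.602, 0.585 and 0.708 in MZ. No subsets overlapped for Etv5, and BDL over FO was 3.0-fold (log2 fold change 1.59, limma adjusted p = 0.000326). In BDL over MZ 3 were higher and 4 lower, where 16.5% and 11.6% of all rows were, and in MZ over FO 4 were higher and 4 lower, where 14.3% and 12.8% of all rows were. Spic, which encodes the third ETS protein of the PU.1 group, had 3.51, 3.28 and 3.50 FPKM in MZ and at most 0.912 FPKM in the other 6 libraries, and MZ over FO was 4.10-fold (log2 fold change 2.04, adjusted p = 2.22e-05). The most abundant other ETS gene, Elf1, had an adjusted p above 0.05 in all comparisons. Of 6 other POU genes 1 was tested, Pou6f1, with 9.54, 7.58 and 8.85 FPKM in BDL, 17.6, 17.7 and 16.3 in FO and 15.4, 15.9 and 15.4 in MZ. It was lower in BDL than in either, with log2 fold changes of -0.99 against FO (adjusted p = 0.000934) and -0.85 against MZ (adjusted p = 0.000302). Of 3 other Ikaros genes 1 was tested, Ikzf5, which had limma adjusted p-values of 0.267, 0.703 and 0.0960 in BDL over FO, BDL over MZ and MZ over FO, and of 5 EBF genes and EBF1-binding zinc finger genes 0 passed the minimum.

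Partner proteins of these factors include IRF4 and IRF8, which bind DNA jointly with PU.1 and Spi-B, the core binding factors Runx1 and Cbfb, and subunits of the remodelling complex that Ikaros recruits. All 11 were tested. In BDL over FO 1 was higher, Tcf3, the gene of the E2A proteins, with a log2 fold change of 0.34 (limma adjusted p = 0.0238), where 6.04% of all rows were higher. In BDL over MZ 8 were higher and 1 lower, where 16.5% and 11.6% of all rows were. Irf8 was 1.63-fold higher in BDL than in MZ (log2 fold change 0.71, adjusted p = 0.00230) and Irf4 lower, by -0.78 (adjusted p = 0.0280). In MZ over FO 3 were lower, where 12.8% of all rows were. These were Irf8, Gabpb1 and Runx1, with log2 fold changes of -0.73, -0.49 and -0.41. The median difference of the partners was 0.17 in BDL over FO, 0.48 in BDL over MZ and -0.31 in MZ over FO, against 0.048, 0.057 and -0.0087 over all rows. No partner reached 2-fold, and Tcf3, Irf8, Irf4, Gabpb1 and Runx1 are named after their values were seen.

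Genes known as targets of the factors went in both directions. Their counts stand beside shares of all rows of 6.04% higher and 1.68% lower in BDL over FO, 16.5% and 11.6% in BDL over MZ, and 14.3% and 12.8% in MZ over FO. Of 8 EBF1 targets 6 were tested; 0 passed in BDL over FO, where 0 had an unadjusted p under 0.05 in limma, 2 were higher and 1 lower in BDL over MZ, and 1 was higher and 1 lower in MZ over FO. Vpreb3, which encodes a chaperone of the pre-B cell receptor, had 114, 149.5 and 119 FPKM in BDL, 92.2, 112 and 109 in FO, and 18.6, 22.9 and 23.4 in MZ, which was 5.87-fold higher in BDL than in MZ (log2 fold change 2.55, adjusted p = 1.03e-05). Of 9 PU.1 and Spi-B targets 1 was lower in BDL than in FO, Ciita, the master regulator of MHC class II genes, by -0.47 on the log2 scale (adjusted p = 0.0379, named after its value was seen). In BDL over MZ 5 were higher and 2 lower, among them the adaptor gene Grap2, 2.43-fold higher (log2 fold change 1.28, adjusted p = 8.39e-05). In MZ over FO 1 was higher and 4 lower.

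Of 7 targets of Oct-2 and OBF1, 2 were higher in BDL than in FO. Cd36, the gene of a scavenger receptor, had 19.0, 26.6 and 19.3 FPKM in BDL, 9.32, 10.1 and 12 in FO, and 60.8, 82.3 and 65.1 in MZ. BDL stood between the other subsets without overlap, with log2 fold changes of 1.03 over FO (limma adjusted p = 0.0113) and -1.68 over MZ (adjusted p = 0.000210). Il5ra, the gene of the interleukin-5 receptor chain, was the second, with a log2 fold change of 0.47 (adjusted p = 0.0360, named after its value was seen). In BDL over MZ 3 of the 7 were higher and 1 lower, with Crisp3 the largest at a log2 fold change of 3.42 (adjusted p = 6.77e-05). In MZ over FO 2 were higher, Cd36 by 2.71 and the potassium channel gene Kcnn4 by 1.06, and 2 were lower, Crisp3 by -2.98 and Btk by -0.43. Btk did not reach 2-fold and is named after its value was seen.

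Of the 5 precursor cell genes that Ikaros and Aiolos are known to repress, among them Rag1 and Igll1, 0 reached the minimum mean. The 4 plasma cell genes that Ets1 is known to oppose were all tested. Sdc1, the gene of CD138, had 6.86, 9.58 and 8.96 FPKM in BDL, 1.61, 1.22 and 1.67 in FO, and 0.114, 0.129 and 0.289 in MZ, and was higher in BDL than in FO by 2.42 on the log2 scale (limma adjusted p = 0.00147) and than in MZ by 4.99 (adjusted p = 6.54e-06). Prdm1, the gene of Blimp-1, ran in another order, with 3.50, 4.25 and 5.41 FPKM in MZ, 0.725, 0.885 and 1.18 in BDL and 0.376, 0.391 and 0.814 in FO. Prdm1 was higher in MZ than in FO by 2.89 on the log2 scale (adjusted p = 0.000184) and lower in BDL than in MZ by -2.12 (adjusted p = 0.00118). In BDL over FO, Prdm1 overlapped and had an adjusted p of 0.159. MZ libraries had the lowest Ets1 and Sdc1 levels and the highest Prdm1 levels, and a link of Ets1 with these genes was not tested. Xbp1, the most abundant of the 4, had adjusted p-values of 0.342, 0.0780 and 0.503 in BDL over FO, BDL over MZ and MZ over FO. Igj, named after its values were seen, overlapped in all of them, with limma adjusted p-values of 0.496, 0.594 and 0.190.

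**Figure D5:**
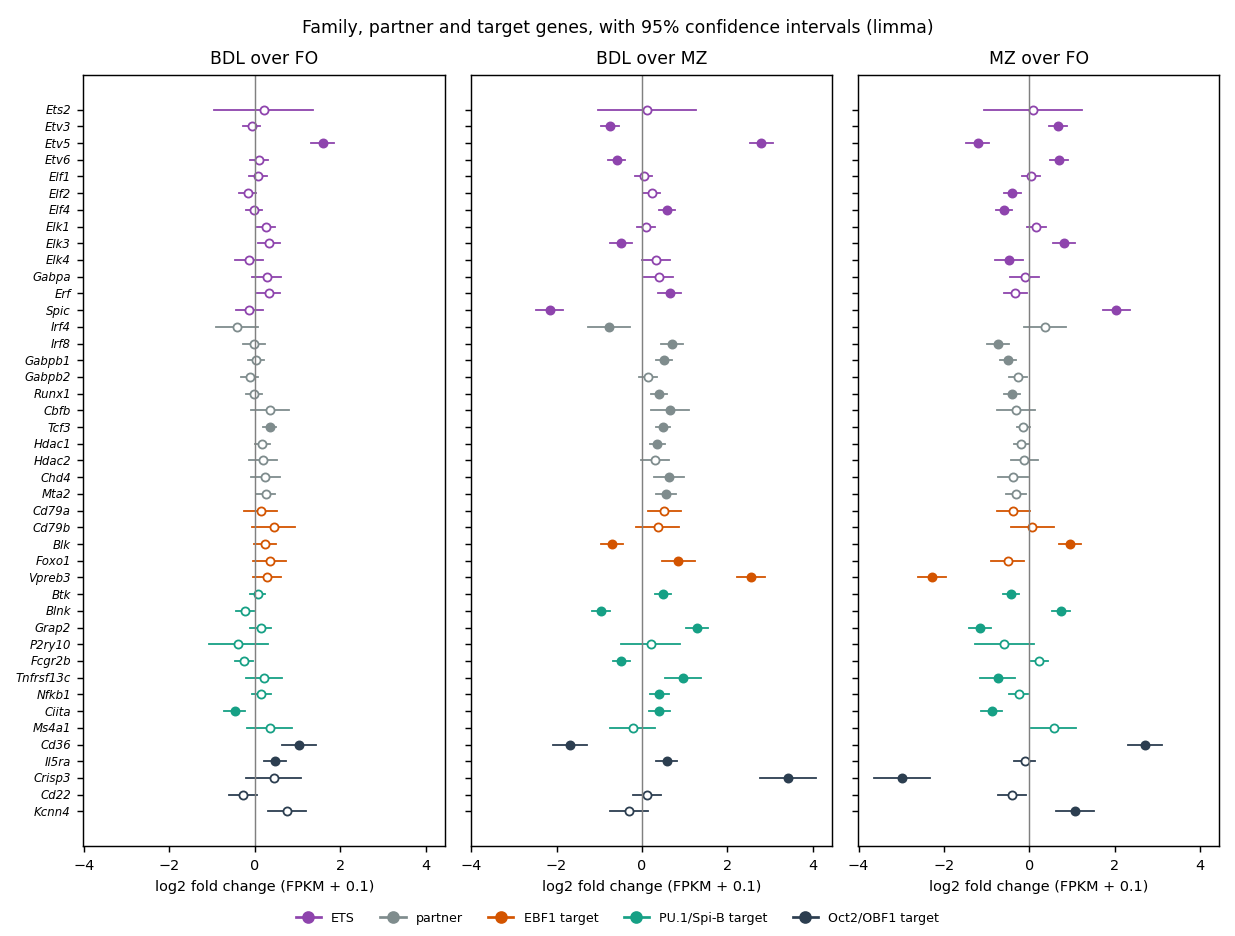
Log2 fold change on the FPKM + 0.1 scale (horizontal axis), with 95% confidence intervals from limma on 9 libraries, of 43 ETS, partner and target genes that passed the minimum mean. Filled points have an adjusted p under 0.05 and colours give the list; few points are filled for BDL over FO, Etv5 at 1.59 and Cd36 at 1.03 among them.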

How the data were processed

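RNA-seq of 9 libraries, 3 each of FO, BDL and MZ B cells, was analysed. The authors aligned the reads to mm9 with TopHat2 2.1.0, per the labels, and deposited 1 FPKM per gene and library, computed with Cufflinks, whose version and gene annotation are not given in the sources used here. The labels describe single-end libraries that are not strand specific and the paper's methods a stranded kit. The authors' table of Cuffdiff fold changes and p-values was not used. The table holds no counts. Relative depth was read from the spacing of low FPKM values, of which, depending on the library, 63.4% to 75.5% came within 0.1 of whole fragments. Fragment numbers are approximate and their error covers counting only.

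FPKM were used as deposited, as log2(FPKM + 0.1), and limma 3.58.1 (R 4.3.3) was run on the 11597 rows whose mean reached 0.5 FPKM. One fit held all 9 libraries, modelled the subset alone and used eBayes with a trend, and Benjamini-Hochberg adjustment ran over all rows tested. Calls used an adjusted p under 0.05 and, where said, a 2-fold change. Fold changes are on the log2(FPKM + 0.1) scale. Ratios of related genes were tested by exact permutation, two-sided. The script was tested on simulated data. Plots used matplotlib 3.10.9 in Python 3.11.15.

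The label date was taken as pairing the libraries, since the labels give 1 library of each subset per date. Deviations from subset means correlated across rows at 0.147, 0.0491 and -0.0623 between BDL and FO, 0.100, 0.244 and 0.182 between BDL and MZ, and 0.0238, 0.0138 and 0.0077 between MZ and FO for replicates 1 to 3. The study's methods do not use the date, which was therefore an alternative, as a block.

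All 10 genes are named. From each list, genes that passed with a 2-fold change were named, at most 4 per list and comparison, with the most abundant gene as an example of one that did not pass, and for likeness the 2 rows with the highest Pearson correlation. The members and lists were chosen with earlier results of these data known. Gene positions came from GENCODE M1 on NCBIM37, where Spi1 has its older name, and promoters from RefSeq on GRCm38.p6. Promoters of Spi1, Ets1, Fli1 and Ikzf3 were not analysed here. One gene of the lists is not reported here by name and is left out of the plot of list genes, but stays in the list counts. The alternatives were another constant, another minimum or none, a fit of only the 6 libraries compared, the block, upper quartile and quantile scaling, other variance models, and each library left out.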

Additional observations from a re-analysis of the deposited data

How the results depend on the processing

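The 30 comparisons of single members were recomputed under 20 alternatives, 600 values in all, of which 551 kept their direction and side of the threshold, 20 lost a call, 7 gained one and 22 changed sign. Calls of Fli1 and Ikzf3 that involve MZ held under all 20, with adjusted p-values up to 0.00323 and 0.0387, and Fli1 was the one gene past 2-fold throughout. With the label date as a block (the replicate block), 2 members passed in BDL over FO in place of 0, with 2378 rows called in place of 896, and 4952 rows in place of 3255 in BDL over MZ; beyond Spib, Ikzf1 and Spi1, named above, the block changed no call of a member. With the 6 libraries of BDL and MZ alone, 2 members passed in place of 5, with 2254 rows called in place of 3255, and Spib (adjusted p = 0.0690), Pou2f1 (0.0881) and Ets1 (0.0681) did not; the smaller number of libraries leaves fewer degrees of freedom. With each library left out in turn, the members that passed numbered 0 throughout in BDL over FO, 2 to 6 in BDL over MZ and 3 to 4 in MZ over FO, and rows called numbered 324 to 1109, 2158 to 3570 and 2096 to 3943. Without replicate 2 of every subset, chosen after the data were seen, 1, 6 and 5 members passed, with 836, 3937 and 3696 of 11634 rows called. Every value that changed sign belonged to a difference that had not been called. By scaling these were Spib in MZ over FO (0.0083, upper quartile), Pou2f2 in BDL over MZ (-0.024, quantile) and Ebf1 in MZ over FO (0.044, quantile). Without replicate 2 of every subset they were Spi1 (-0.0019) and Fli1 (-0.048) in BDL over FO and Pou2af1 (-0.030) in MZ over FO. With single libraries left out, BDL over FO ran from -0.19 to 0.059 for Ebf1, -0.11 to 0.067 for Ikzf3, -0.23 to 0.019 for Ets1, -0.045 to 0.19 for Spi1 and -0.014 to 0.24 for Fli1, BDL over MZ from -0.14 to 0.11 for Ebf1, and MZ over FO from -0.16 to 0.076 for Ebf1, -0.10 to 0.061 for Spib and -0.050 to 0.11 for Pou2af1. The cause of these changes was not tested. Of the 12 ratio comparisons none changed sign under 9 alternatives each, in which single libraries were left out. Where ratios did not overlap between subsets, leaving out a library could not change the sign. The comparisons with overlap were Spib over Spi1 in BDL over MZ, from 0.069 to 0.25, and Pou2f2 over Pou2f1 in BDL over FO, from 0.059 to 0.20. Each subset rests on 3 libraries of pooled mice, depth is an estimate, and IgD itself was not analysed here.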
